A study of Mus musculus with 7 samples.

Results

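The genes described here encode the proteins of the cytosolic ribosome. They were chosen by name: every row whose symbol begins with Rpl or Rps followed by a number, the stalk genes Rplp0 to Rplp2, and Rpsa, without rows named as pseudogenes. The rule found 90 of the 34305 rows of the count table, 54 named Rpl and 36 named Rps, spread over 19 chromosomes with 4 on the X chromosome. In GENCODE M21 (GRCm38), 84 of the 90 are protein coding and 6 are annotated as pseudogenes despite their names (Rps4l, Rps3a2, Rps3a3, Rpl6l, Rpl32l and Rps12l1). Of the coding rows, 43 belong to the large subunit, 31 to the small subunit and 3 to the stalk, and 7 are paralogs that stand beside a usual member.

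Polyadenylated RNA was sequenced from mouse haematopoietic stem and progenitor cells (HSPCs) in culture, in 7 libraries. There were 3 libraries of cells that overexpress MN1-∆pQ (labelled MN1pQdel; the labels do not spell out pQ), 3 of cells that overexpress MN1, a nuclear protein that causes myeloid leukaemia in mice when overexpressed, and 1 of cells with no transduction (labelled noTD, although its source label reads as transduced). Transduced cells were sorted, and the medium of all 7 libraries held murine IL-3, IL-6 and SCF for the 7 to 9 days before RNA was taken. The labels name neither a promoter or vector nor a mouse strain. The series text calls the samples independent without naming animals, so a p-value here reflects the spread among samples that may share a source.

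Each ribosome joins a small subunit, which reads the messenger RNA, to a large subunit, which forms the peptide bond, and a stalk of acidic proteins on the large subunit recruits translation factors. Cells make the proteins of both subunits in matched amounts from unlinked genes, and the messages share a pyrimidine-rich 5′ end through which mTOR and Larp1 control their translation. In blood formation the ribosomal proteins are known for Diamond-Blackfan anaemia, in which loss of a single copy of one such gene impairs red cell production.

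The 5′ ends of 5 members are shown because a run of pyrimidines at the start is what the family is known to share. Each line holds 30 bases of the sense strand around the longest pyrimidine run in the first 50 bases from the RefSeq start (GRCm38.p6), with that run in capitals.
Rpl4, chr9:64173405-64173434, plus strand: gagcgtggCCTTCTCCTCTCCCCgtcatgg
Rps2, chr17:24720083-24720112, plus strand: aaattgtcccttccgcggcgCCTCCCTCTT
Rpl41, chr10:128549119-128549148, minus strand: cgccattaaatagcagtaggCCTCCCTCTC
Rpl12, chr2:32961732-32961761, plus strand: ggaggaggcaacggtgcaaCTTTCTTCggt
Rplp0, chr5:115559466-115559495, plus strand: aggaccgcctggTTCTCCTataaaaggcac
The runs measured 15 bases in Rpl4, at least 10 in Rps2 and in Rpl41, where they reach the last of the 50 bases searched, 8 in Rpl12 and 7 in Rplp0. They began at base 12 from the RefSeq start in Rplp0, 27 in Rpl4, 40 in Rpl12 and 41 in Rps2 and Rpl41. None thus lies at the RefSeq start itself, and whether that start is the first base of the message was not tested. RefSeq windows were found for 57 of the 77 usual subunit and stalk members. Of those 57, 37 (64.9%) held a run of at least 8 pyrimidines anywhere in these 50 bases, against 19.9% of all 27025 genes with a window. Over the whole window, from 250 bases before the start to 50 after it, the letters CCGGAAG (the core that ETS-family factors recognise), read on either strand, were in 24 of the 57 (42.1%) and in 9.93% of all genes. The letters AAGATGGC (the core that YY1 recognises), on either strand, were in 5 of the 57 (8.77%) and in 3.19% of all genes. These matches describe the windows and were not tied to any value below.

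Ribosomal protein messages took a smaller part of the RNA in MN1pQdel libraries than in MN1 libraries. The 90 members held 5.12%, 5.48% and 4.52% of all counts in MN1pQdel libraries 1 to 3, against 6.78%, 6.76% and 6.50% in MN1 libraries 1 to 3, and 4.70% in the noTD library. All MN1pQdel libraries lay below all MN1 libraries, and noTD lay within the MN1pQdel range. The means were 5.04% ± 0.483 for MN1pQdel and 6.68% ± 0.158 for MN1 (SD, n = 3 each), a difference of -1.64 percentage points (two-sided exact permutation test, p = 0.1, the smallest p that 3 against 3 libraries can give). The Rpl rows averaged 2.95% ± 0.264 in MN1pQdel and 3.91% ± 0.0882 in MN1, and the Rps rows averaged 2.10% ± 0.219 in MN1pQdel and 2.77% ± 0.0697 in MN1 (SD, n = 3 each).

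The balance of the subunits showed no such split. Counts of the Rpl rows divided by counts of the Rps rows gave 1.41, 1.38 and 1.43 in the MN1pQdel libraries, against 1.41, 1.41 and 1.42 in the MN1 libraries, and 1.42 in noTD. The groups overlapped (two-sided exact permutation test, p = 0.7).

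**Figure D1:**
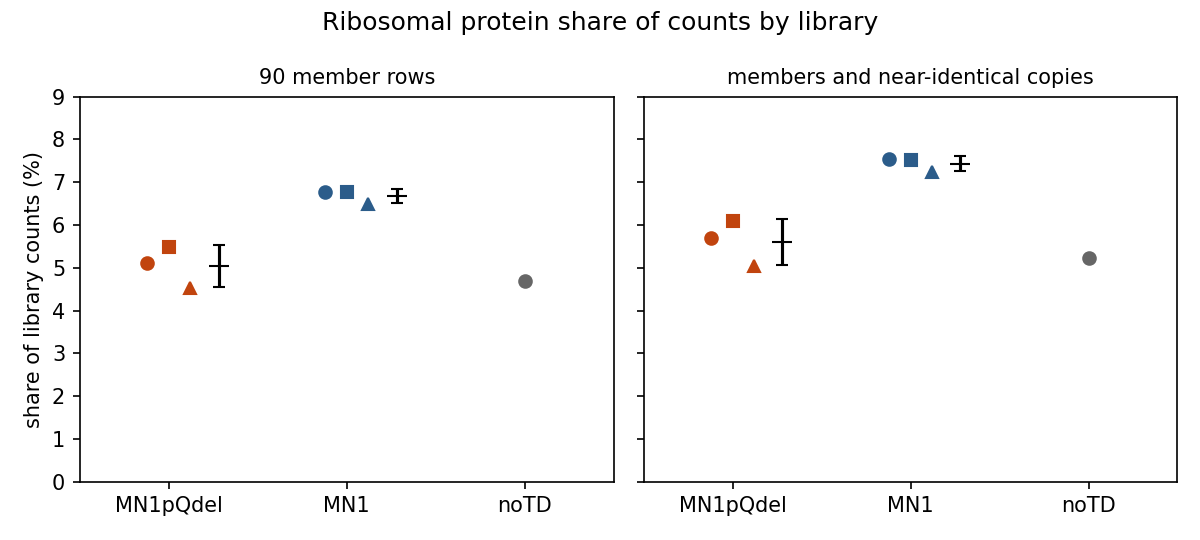
Share of library counts (%) held by the 90 member rows (left) and by the members with their near-identical copies (right). Each point is 1 library (circle 1, square 2, triangle 3) and the bar is the mean ± SD of 3 libraries. In both panels every MN1pQdel library lies below every MN1 library, with noTD at 4.70% and 5.22%.

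Markers of several cell types also differed between MN1pQdel and MN1. All 11 neutrophil marker genes tested were called higher in MN1pQdel than in MN1. Called means a p under 0.05 by edgeR's quasi-likelihood test after Benjamini-Hochberg adjustment. Of all genes, 11.1% were called higher and 6.08% lower. The summed level of the 11 ranged from 26782 to 37193 CPM (counts scaled to a common library size) in MN1pQdel, against 4244 to 7913 in MN1, and was 39567 in noTD. Markers of eosinophils (7 of 7 called higher), basophils (3 of 3), mast cells (5 of 8) and monocytes or macrophages (6 of 8) moved the same way. The mast cell and monocyte or macrophage markers not called also leaned higher, with log2 fold changes from 0.34 (Cd14) to 3.86 (Cma1). Mast cell sums overlapped between the groups, at 13510, 1897 and 16046 CPM in MN1pQdel, against 2698, 984 and 2423 CPM in MN1, and 14227 CPM in noTD, through MN1pQdel library 2. The eosinophil sum ranged from 232 to 3649 CPM in MN1pQdel, against 12.4 to 19.5 CPM in MN1, and was 3893 CPM in noTD; MN1pQdel library 2 held the 232. Of 7 progenitor markers, 6 were called lower in MN1pQdel. The summed levels of all 7 were 816 to 1244 CPM in MN1pQdel, 1621 to 1994 CPM in MN1 and 1115 CPM in noTD. Kit, the other, leaned higher and was not called (log2 fold change 0.78). It had 532, 247 and 880 CPM in MN1pQdel, 310, 235 and 423 CPM in MN1, and 621 CPM in noTD. No marker of these lists was at 0 in every library of a group. The rows of all 11 marker lists took 4.70% to 6.02% of counts in MN1pQdel, 1.46% to 2.01% in MN1 and 6.63% in noTD. Of the remaining lists, promyelocyte markers (0 of 4 called; 1049 to 7462 CPM in MN1pQdel, 1845 to 4125 CPM in MN1), megakaryocyte markers (0 of 5; 340 to 941 CPM in MN1pQdel, 223 to 665 CPM in MN1), erythroid markers (1 of 7 higher) and lymphoid markers (0 of 2 tested) had few or no calls, and 2 of 3 markers of all leukocytes were higher. With the rows of all marker lists left out of the totals, a setting chosen after seeing the data, the member share was 5.45%, 5.75% and 4.77% in MN1pQdel, 6.92%, 6.87% and 6.59% in MN1, and 5.03% in noTD, a difference of -1.47 points. How far the mix of cells takes part in the member share beyond those rows was not tested. In bulk RNA, fewer cells of a type and less RNA per cell cannot be told apart.

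Library totals ranged from 38210847 to 67728808 estimated counts. The Mn1 row, which the transduced constructs should raise, stood at 692, 401 and 731 CPM in MN1pQdel, 313, 286 and 283 CPM in MN1, and 34.5 CPM in noTD, so it followed the labels. It was also higher in MN1pQdel than in MN1 (log2 fold change 1.05, SE 0.229, edgeR's quasi-likelihood test, with a p of 0.0282 after Benjamini-Hochberg adjustment over all genes tested, from here on a BH-adjusted p).

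Gene by gene, the ribosomal protein messages showed a shallow, shared shift rather than a few large changes. Of the 86 members with enough counts to test, 80 had a log2 fold change below 0 for MN1pQdel over MN1, a side taken by 49.3% of all 14808 genes tested. The median was -0.20 for the members, with the middle 50% of them between -0.27 and -0.14, and 0.01 for all genes, whose middle 50% lay between -0.35 and 0.47. The median was -0.21 for 43 large-subunit members, -0.18 for 31 small-subunit members and -0.24 for the 3 stalk genes. In 49 members every MN1pQdel library lay below every MN1 library, against 21.3% of all genes, and in 1 member every MN1pQdel library lay above, against 22.1% of all genes. The 49 comprised 31 large-subunit, 15 small-subunit and 1 stalk member and 2 paralogs.

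Of the 90 members, 4 were too low to test: Rpl10l and Rpl39l, paralogs of testis, and Rpl32l and Rps12l1, which GENCODE lists as processed pseudogenes; Rps12l1 had 0 counts in every library. The other pseudogene rows were low, at 0.34 to 1.73 CPM over the 7 libraries, and had log2 fold changes of 0.74 (Rpl6l), 0.31 (Rps3a2) and -0.16 (Rps3a3) that did not pass.

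Single members seldom passed the test over all genes. With edgeR at a BH-adjusted p under 0.05, 1 member fell (Rpl12; 6.08% of all genes were called lower) and 1 rose (Rps4l; 11.1% of all genes were called higher). At an unadjusted p under 0.05, 19 members were lower, against 16.8% of all genes, and 1 was higher, against 21%. Libraries with the same number in the 2 groups deviated together, though the labels do not say that they are pairs. With the replicate number as a block 14 members fell and 1 rose, where 13.7% of all genes were called lower and 17% higher. The members called lower thus made up a share of the 86 close to that of all genes in that fit. DESeq2 called 11 members lower and 1 higher, where it called 12.9% of all genes lower and 16.4% higher. The counts also move with the scaling: by library totals 39 members fell and 1 rose, where 12.5% of all genes were called lower and 7.7% higher, and higher calls made up 38.2% of all calls, against 64.6% with TMM. Without both libraries numbered 2, 7 members fell, where 17.4% of all genes were called lower, and relative to the sum of all members 0 fell and Rps4l rose, where 3.86% of all genes were called lower and 17.6% higher.

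**Figure D2:**
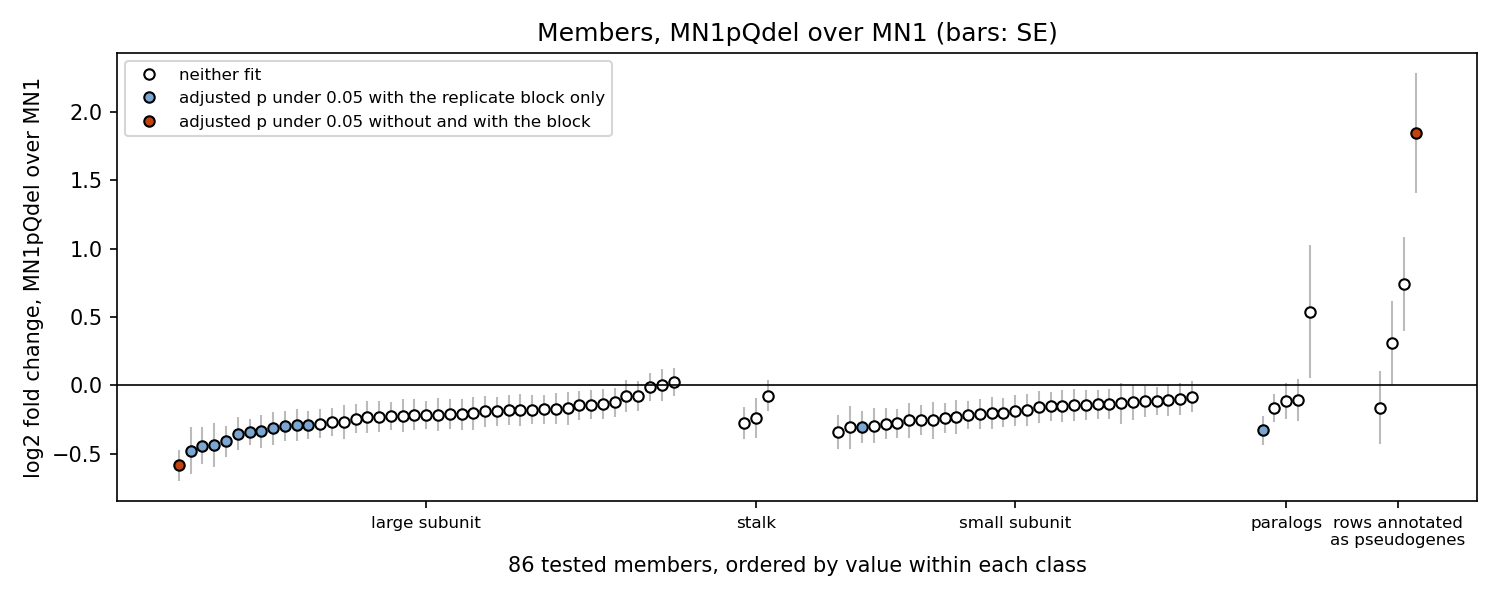
Log2 fold change of MN1pQdel over MN1 for the 86 tested members (points, bars are SE), ordered by value within each class. Orange points passed the adjusted p of 0.05 without and with the replicate block and blue points with the block alone. Nearly all points lie between 0 and -0.58 and Rps4l stands alone at 1.85.

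The 14 members that fell with the block were 12 large-subunit proteins (Rpl3, Rpl4, Rpl5, Rpl6, Rpl12, Rpl15, Rpl22, Rpl24, Rpl27, Rpl27a, Rpl36 and Rpl36a), the small-subunit protein Rps20 and the paralog Rpl36al. Those outside the naming rule are named after their values were seen. Their log2 fold changes ran from -0.58 to -0.29, and their adjusted p from 0.0147 to 0.0496 (edgeR with the replicate block, BH adjustment). Whether large-subunit members fell more often than small-subunit members was not tested.

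Rpl12, a large-subunit protein at the base of the stalk (chr2:32961559-32965345, plus strand), had 40.8, 46.0 and 39.7 CPM in MN1pQdel, against 58.1, 66.7 and 64.6 CPM in MN1, and 41.5 CPM in noTD. Every MN1pQdel library was below every MN1 library, and noTD was level with MN1pQdel. Its log2 fold change was -0.58 (SE 0.114, edgeR, BH-adjusted p = 0.0213).

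That row holds a small part of the reads that could come from Rpl12. The coding sequence of Rpl12 measures 495 bases and is found whole in 2 transcripts of Gm10275, which GENCODE lists as a processed transcript. The first 60 coding bases, shown as a sample of this shared sequence, are in both.
Rpl12, coding bases 1 to 60: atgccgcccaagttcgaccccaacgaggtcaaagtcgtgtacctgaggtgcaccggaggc
Gm10275 stood at 751, 782 and 644 CPM in MN1pQdel, 947, 934 and 849 CPM in MN1, and 670 CPM in noTD. Rows nearly identical to Rpl12 held 94.0% of the counts of the whole family. Summed with its 6 copies, Rpl12 had 795, 831 and 687 CPM in MN1pQdel, against 1009, 1004 and 917 CPM in MN1, and 716 CPM in noTD. The groups still did not overlap, but the log2 fold change was -0.34 (SE 0.119, edgeR, BH-adjusted p = 0.0859) and passed only with the replicate block (edgeR, BH-adjusted p = 0.0369).

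Such copies touch many members. Rows at least 95% identical to a member over at least 80% of its coding sequence numbered 543, for 78 members, and held at least 10% of the family's counts for 18 members. They held over 50% for 6 members: Rpl5 (95.4%), Rpl12 (94.0%), Rps12 (92.1%), Rpl27 (79.8%), Rpl27a (62.7%) and Rps23 (57.7%). With every member summed with its copies, 83 were tested, the median log2 fold change stayed at -0.20, 0 fell (14 at an unadjusted p under 0.05; 6.21% of all genes were called lower) and Rps4l rose (11.3% called higher). With the block as well, 10 fell, all of them among the 14 above, where 13.9% of all genes were called lower. The summed share of counts was 5.69%, 6.09% and 5.04% in MN1pQdel, 7.54%, 7.52% and 7.23% in MN1, and 5.22% in noTD.

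Rps4l was the only member that rose. GENCODE M21 lists it as a transcribed processed pseudogene (chr6:148354656-148355598, plus strand), related to Rps4x, the small-subunit gene on the X chromosome. It had 5.82, 1.87 and 3.99 CPM in MN1pQdel, against 1.12, 1.15 and 0.98 CPM in MN1, and 4.90 CPM in noTD. Every MN1pQdel library lay above every MN1 library, MN1pQdel library 2 was the nearest to them, and noTD lay inside the MN1pQdel range. The log2 fold change was 1.85 (SE 0.436, edgeR, BH-adjusted p = 0.0346).

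The lines below set the 99 coding bases in which both differ most side by side, because they show that reads of Rps4l can be told from those of Rps4x; capitals mark the bases that differ.
Rps4x, coding bases 478 to 576: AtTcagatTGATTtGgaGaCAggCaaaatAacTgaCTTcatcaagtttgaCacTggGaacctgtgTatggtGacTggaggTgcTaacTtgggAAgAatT
Rps4l, the bases aligned to them: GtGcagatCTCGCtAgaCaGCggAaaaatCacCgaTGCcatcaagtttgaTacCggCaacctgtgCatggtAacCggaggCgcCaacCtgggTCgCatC
There were 30 mismatches in this stretch, and over the 782 aligned bases of the coding sequence 628 were identical (80.3%). Rps4x itself had 967, 947 and 900 CPM in MN1pQdel, 1155, 1069 and 1048 CPM in MN1, and 873 CPM in noTD, so Rps4l and Rps4x lay on opposite sides. The calls of Rpl12 and Rps4l each held in 1 of the 6 fits that left out 1 library, the one without MN1pQdel library 2. In the other 5 the adjusted p was 0.0627 to 0.0896 for Rpl12 and 0.0863 to 0.116 for Rps4l (edgeR, BH adjustment).

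**Figure D3:**
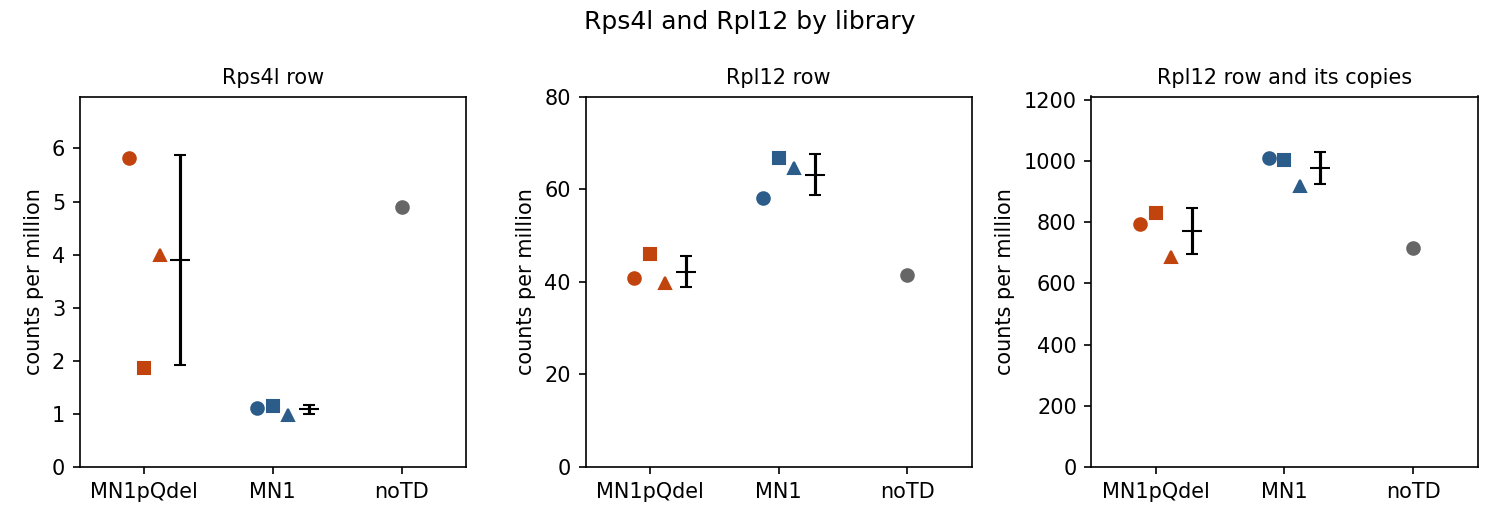
Level in CPM of the Rps4l row, the Rpl12 row and Rpl12 summed with its copies (axes differ), by library (circle 1, square 2, triangle 3), with the mean ± SD of 3 libraries. In each panel the MN1pQdel and MN1 libraries do not overlap, and noTD lies with MN1pQdel.

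The 5 members of highest share had log2 fold changes below 0, and none passed without the block. Rplp0, the stalk protein that anchors the acidic pair, had 2053, 2293 and 1662 CPM in MN1pQdel, against 2419, 2462 and 2207 CPM in MN1, and 1796 CPM in noTD. The groups overlapped through MN1pQdel library 2 (log2 fold change -0.24, edgeR, BH-adjusted p = 0.272). Rps2, a small-subunit protein near the messenger RNA entry, averaged 1643 ± 221 CPM in MN1pQdel and 1960 ± 126 CPM in MN1 (SD, n = 3 each), with overlap. Rpsa, the small-subunit protein also known as the laminin receptor, averaged 1511 ± 272 CPM in MN1pQdel and 1867 ± 122 CPM in MN1 (SD, n = 3 each), with overlap. Rplp1, an acidic stalk protein, stood at 1528, 1354 and 1331 CPM in MN1pQdel, against 1489, 1560 and 1389 CPM in MN1, and 1401 CPM in noTD, which is the smallest difference of the 5 members of highest share (log2 fold change -0.08). Rpl4, a large-subunit protein with an extension into the exit tunnel, had 1567, 1599 and 1349 CPM in MN1pQdel, against 1927, 1929 and 1759 CPM in MN1, and 1396 CPM in noTD. Its groups did not overlap, and it fell with the replicate block (log2 fold change -0.32, edgeR, BH-adjusted p = 0.0463; without the block -0.31 and 0.104).

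Members known for roles in disease or in regulation were named whatever their values. Rpl5 and Rpl11, which together with 5S RNA bind Mdm2 and thereby stabilise p53, had log2 fold changes of -0.48 and -0.18. Rpl5 had 46.8, 52.9 and 39.5 CPM in MN1pQdel, against 64.9, 75.2 and 53.5 CPM in MN1, and 40.3 CPM in noTD, without overlap. Its adjusted p was 0.0917 without the block and 0.0164 with it (edgeR, BH adjustment). Most of its family's counts lie in Gm15500, which holds its whole coding sequence, and summed with its 4 copies the log2 fold change was -0.24 (edgeR, BH-adjusted p = 0.161, and 0.0769 with the block).

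Rpl22, which is deleted in some human T-cell leukaemias, had 236, 249 and 205 CPM in MN1pQdel, against 297, 323 and 295 CPM in MN1, and 200 CPM in noTD. Its groups did not overlap, and it has next to no counts in copies. Its log2 fold change was -0.41 (SE 0.114, edgeR, BH-adjusted p = 0.0521), and it fell with the replicate block (edgeR, BH-adjusted p = 0.0271). Rpl3, which shapes the peptidyl transferase centre, had 1253, 1387 and 1034 CPM in MN1pQdel, against 1703, 1677 and 1602 CPM in MN1, and 1132 CPM in noTD. Its log2 fold change was -0.44 (edgeR, BH-adjusted p = 0.0674, and 0.0371 with the block); it lies outside the naming rule.

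Other members known from anaemias, signalling or leukaemia did not pass the test. Rps19, the gene most often mutated in Diamond-Blackfan anaemia, had 639, 578 and 542 CPM in MN1pQdel, against 645, 635 and 581 CPM in MN1, and 569 CPM in noTD, with overlap and a log2 fold change of -0.08. Rps14, which is lost in the human 5q- syndrome, had 839, 743 and 642 CPM in MN1pQdel, against 939, 912 and 879 CPM in MN1, and 712 CPM in noTD, without overlap and with a log2 fold change of -0.30 (edgeR, BH-adjusted p = 0.142). Rps6, the target of S6 kinase, and Rpl13a, part of a complex that silences inflammatory messages in human monocytes, had log2 fold changes of -0.28 and -0.27 without overlap, and neither passed with or without the block. Rpl38, known for the translation of Hox messages in mouse embryos, and Rpl10, mutated in some human T-cell leukaemias, had -0.12 and -0.01 with overlap.

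A few usual members had fold changes close to 0. Rpl41, the smallest ribosomal protein, had 1511, 1236 and 1405 CPM in MN1pQdel, against 1397, 1373 and 1369 CPM in MN1, and 1398 CPM in noTD, with overlap. Its log2 fold change was 0.0048, and -0.20 by library totals. Rpl37a had 585, 547 and 520 CPM in MN1pQdel, against 557, 553 and 515 CPM in MN1, and 546 CPM in noTD, with overlap, and its log2 fold change was 0.02, and -0.18 by library totals. Relative to Rpl41, Rpl3 counted 0.829, 1.12 and 0.735 in MN1pQdel, against 1.22, 1.22 and 1.17 in MN1, and 0.809 in noTD, a ratio that does not depend on the scaling of the libraries and shows only that both rows differed unequally. Across the 77 usual members, coding length and log2 fold change had a Pearson correlation of -0.30 (Spearman -0.22), and across all 13737 coding genes -0.01 by either measure; members share their libraries, and this is a description.

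Levels per length varied among members. Summed with copies and divided by coding length, the 77 usual members had a median of 1363 CPM per kb in MN1pQdel, 1534 CPM per kb in MN1 and 1309 CPM per kb in noTD. The upper quartile was 1.45 times the lower in both MN1pQdel and MN1, and 1.47 times in noTD. Rpl41 was the highest in each group, at 18455 CPM per kb in MN1pQdel, 18394 in MN1 and 18640 in noTD, over a coding length of 75 bases that leaves out most of its message. Rpl22 was the lowest in each group, at 598 CPM per kb in MN1pQdel, 794 in MN1 and 521 in noTD.

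The paralogs differed widely in RNA level relative to the usual gene. Whether a paralog stands in for it in the ribosome was not tested. The ratios here use the rows of the members alone, without copies, per kb of coding length. By these rows Rpl36al averaged 86.8% ± 4.33 of Rpl36a in MN1pQdel and 86.1% ± 6.45 in MN1 (SD, n = 3 each), and was 84.5% in noTD. Copies held 24.2% of the family of Rpl36a and 0.01% of that of Rpl36al, so with copies summed this ratio would be lower. Rps27l reached 26.8% ± 2.13 of Rps27 in MN1pQdel, 27.7% ± 1.71 in MN1 and 22.1% in noTD. Rpl7l1 reached 18.5% ± 3.81 of Rpl7 in MN1pQdel, 17.9% ± 1.21 in MN1 and 16.8% in noTD. Coding length leaves out the untranslated ends, and the whole transcript measures 2606 bases for Rpl7l1 and 1163 for Rpl7. By contrast Rpl3l, a muscle paralog, and Rpl39l, a testis paralog, stood at no more than 0.103% of their usual gene in any library, and Rpl10l had 0 to 5 counts a library.

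Rpl22l1, the paralog that Rpl22 represses in mice, had overlapping groups where those of Rpl22 did not overlap. It had 61.8, 52.5 and 46.8 CPM in MN1pQdel, against 55.8, 66.6 and 51.0 CPM in MN1, and 50.2 CPM in noTD, and a log2 fold change of -0.11. Its level per kb was 27.5%, 22.1% and 24.0% of that of Rpl22 in MN1pQdel, against 19.7%, 21.6% and 18.1% in MN1, and 26.3% in noTD. The ratio did not overlap between the groups, and noTD lay within the MN1pQdel range (two-sided exact permutation test, p = 0.1, the smallest possible, and 0.35 after Benjamini-Hochberg adjustment over the 7 paralog pairs). The ratio of Rpl39l to Rpl39, from 1 to 15 Rpl39l counts a library, did not overlap either, with the same exact permutation p of 0.1 and 0.35 after adjustment. The other 5 pairs had adjusted exact p of 0.467 to 0.8 by the same permutation test.

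Against untransduced cells, the members stood higher in MN1 and close to level in MN1pQdel. noTD has 1 library, so these differences have no test. The median log2 difference in level to noTD was 0.05 for MN1pQdel and 0.26 for MN1 over the 86 members. Over all genes it was within 0.01 of 0 for both. By group mean, 68 of the 86 members lay above noTD in MN1pQdel and 81 in MN1. In 12 members every MN1pQdel library lay above noTD, against 19.8% of all genes, and in 76 members every MN1 library did, against 40.7% of all genes. In 1 member every MN1pQdel library lay below noTD, against 20.2% of all genes, and in 4 members every MN1 library did, against 40.5% of all genes. No member was at least 1.5-fold from noTD with every MN1pQdel library on that side (3.66% of all genes were past it upwards and 7.21% downwards). In MN1, 5 members were at least 1.5-fold above noTD (Rpl5, Rpl12, Rpl22, Rpl27 and Rps21; 20.3% of all genes) and 3 at least 1.5-fold below (Rps4l, Rpl3l and Rpl6l; 25.2% of all genes). The count of 5 was 1 without MN1 library 2, and 2 (Rpl22 and Rps21) when each member was summed with its copies: Rpl5 was then 1.24-fold, Rpl12 1.36-fold and Rpl27 1.22-fold above noTD in MN1. As MN1pQdel and MN1 are here set against the same noTD library, both sets of differences share its error.

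Among members with at least 100 counts in noTD or in every library of the group, Rpl27 and Rps21 were among the 4 highest against noTD in both groups, and Rps4l and Rps27 among the 4 lowest. Rpl27, a large-subunit protein mutated in some patients with Diamond-Blackfan anaemia, differed by 0.30 (MN1pQdel) and 0.73 (MN1) on the log2 scale, with 85.5, 102 and 74.6 CPM in MN1pQdel, 113, 138 and 102 CPM in MN1, and 70.4 CPM in noTD. Summed with its 5 copies, Rpl27 differed by 0.06 in MN1pQdel and 0.28 in MN1. Rps21, a small-subunit protein, differed by 0.27 in MN1pQdel and 0.62 in MN1, and Rps12 by 0.24 in MN1pQdel and 0.36 in MN1 (0.15 in MN1pQdel and 0.30 in MN1 with copies summed). On the other side, Rps4l differed by -0.47 in MN1pQdel and -2.14 in MN1. The others of the 4 lowest above that count were Rps15 (-0.11), Rps27 (-0.10) and Rpl17 (-0.04) in MN1pQdel, and Rpl41 (-0.02), Rpl37a (-0.01) and Rps27 (0.01) in MN1. Below that count, Rpl6l stood at -0.22 in MN1pQdel and -0.95 in MN1, and Rpl3l at -0.12 in MN1pQdel and -0.71 in MN1, while Rps3a2 stood at 0.42 in MN1pQdel. Rpl39 was among the 4 highest in MN1pQdel, at 0.21.

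**Figure D4:**
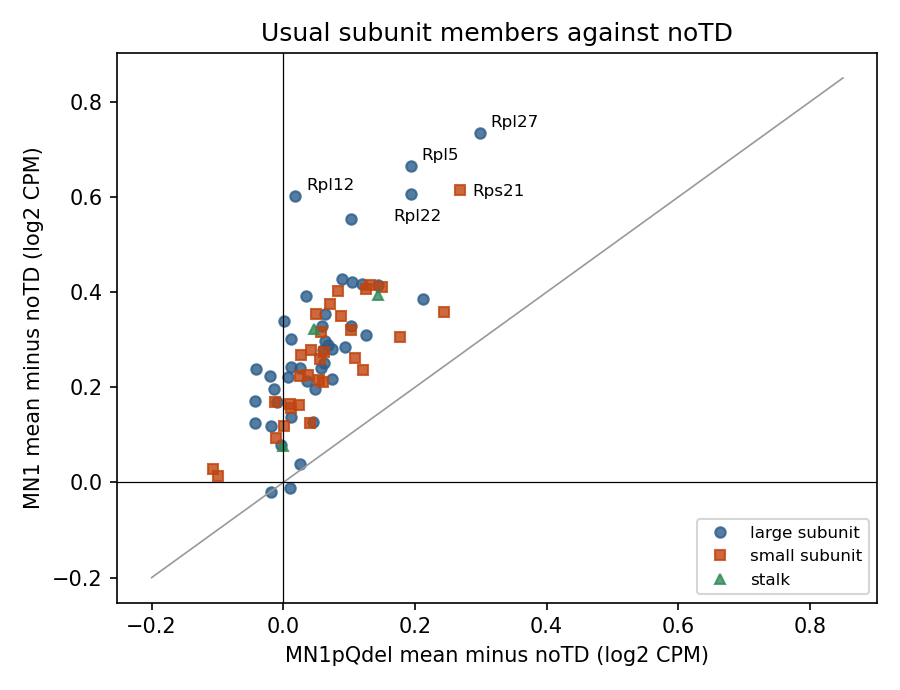
Difference in level to the noTD library (log2 CPM) for the 77 usual members, MN1pQdel mean on the horizontal axis and MN1 mean on the vertical axis; the grey line marks equal differences. Nearly all points lie above the line, and the 5 named members are at least 1.5-fold above noTD in MN1 by their own rows, 2 of them (Rpl22 and Rps21) also with copies summed. Both axes share the noTD library.

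Genes that build, assemble or load the ribosome, others with pyrimidine-rich 5′ ends, and regulators leaned the same way by median. The median was below that of the members in each of 6 lists. Of 90 such genes, 9 fell and 0 rose in MN1pQdel over MN1 (edgeR, BH-adjusted p under 0.05; 1 was higher at an unadjusted p under 0.05, and DESeq2 called 31 lower and 0 higher). With the replicate block 52 fell and 0 rose. Of all genes, 6.08% were called lower by edgeR, 12.9% by DESeq2, 13.7% with the block and 16.8% at an unadjusted p under 0.05. Those called higher made up 11.1% by edgeR, 16.4% by DESeq2, 17% with the block and 21% at an unadjusted p under 0.05. The counts of each list below stand against these shares. The neutrophil and eosinophil marker sums given above were higher in MN1pQdel and the progenitor sum was lower. The part of these cell types in the result was not tested.

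Ribosome assembly factors had the lowest median of the 6 lists. Of 29, 4 fell, and 25 with the block, with a median log2 fold change of -0.52. Gar1, of the snoRNA particles that guide pseudouridylation, had 46.3, 68.2 and 37.7 CPM in MN1pQdel, against 87.8, 106 and 85.7 CPM in MN1, and 38.7 CPM in noTD (log2 fold change -0.88, edgeR, BH-adjusted p = 0.0431). Ncl, nucleolin, had 937, 1325 and 856 CPM in MN1pQdel, against 1581, 2093 and 1626 CPM in MN1, and 747 CPM in noTD (log2 fold change -0.77, edgeR, BH-adjusted p = 0.0472). Fbl, the fibrillarin that methylates ribosomal RNA, had a log2 fold change of -0.64 (edgeR, BH-adjusted p = 0.0406), and in each of these 3 genes the groups did not overlap.

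The other lists had medians nearer to 0. Of 8 chaperones that escort single ribosomal proteins, 0 fell, 5 did with the block, 5 at an unadjusted p under 0.05 and 2 by DESeq2, and their median was -0.34. The most abundant, Aamp, whose yeast homologue Sqt1 escorts Rpl10, had a log2 fold change of -0.26. Of 23 initiation factors, 2 fell (11 with the block), with a median of -0.30. They were Eif3m, of the scaffold that binds the small subunit, at -0.77 (edgeR, BH-adjusted p = 0.0151), and Eif1a, which helps to scan for the start codon, at -0.50 (edgeR, BH-adjusted p = 0.045).

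Of 16 elongation factors and other genes with pyrimidine-rich 5′ ends, 2 fell (7 with the block), with a median of -0.28. They were Hnrnpa1, an RNA-binding protein, at -0.76 (edgeR, BH-adjusted p = 0.0353), and Eef1g, a subunit of the factor that recharges eEF1A, at -0.41 (edgeR, BH-adjusted p = 0.0369). Of 12 regulators, 8 had a log2 fold change below 0. Only 1 fell (3 with the block): Trp53, the p53 gene, at -0.64 (edgeR, BH-adjusted p = 0.0364). Mdm2, at 0.57, was the gene higher at an unadjusted p under 0.05 (edgeR, BH-adjusted p = 0.0937). Myc, a driver of ribosomal genes, had 48.2, 132 and 84.9 CPM in MN1pQdel, against 80.4, 123 and 223 CPM in MN1, and 70.5 CPM in noTD, with overlap.

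**Figure D5:**
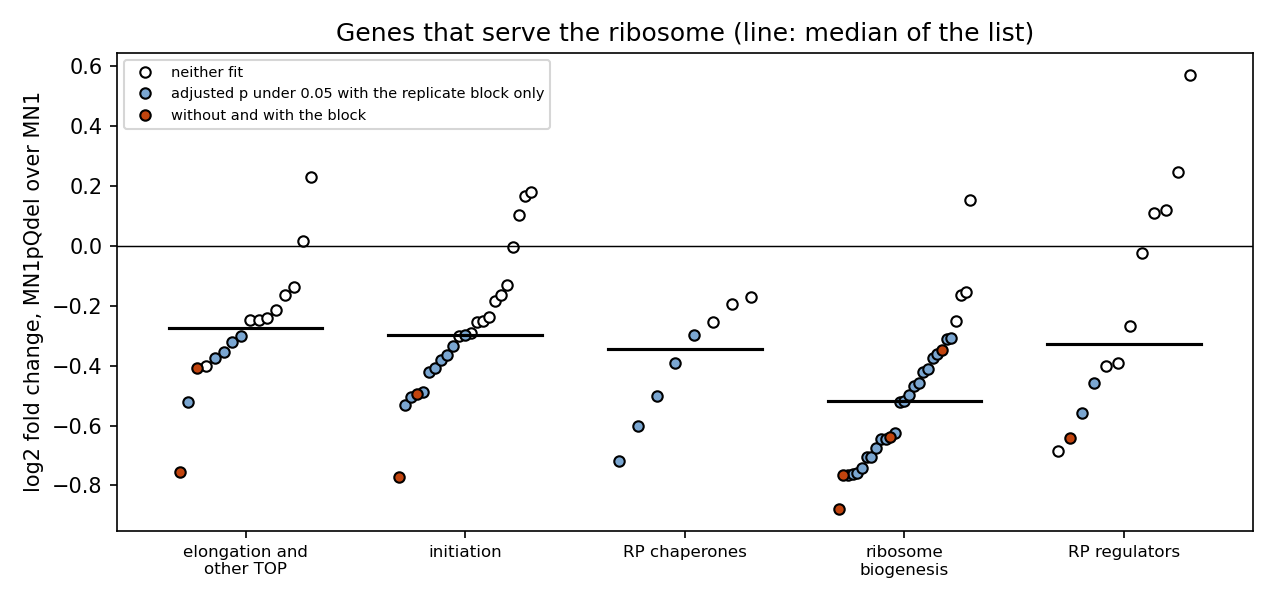
Log2 fold change of MN1pQdel over MN1 for 5 lists of genes that serve the ribosome; each point is 1 gene and the line is the median of its list. Orange points passed the adjusted p of 0.05 without and with the replicate block, blue points with the block alone. The median of each plotted list lies below 0 and that of the assembly factors is the lowest, at -0.52.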

How the data were processed

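The authors deposited a gene-level table of estimated counts, made with kallisto against GRCm38 per the submitters' processing notes, which also name DESeq2; versions, annotation and strand setting were not given there. Of its values 32.5% were not whole (tolerance 1e-06), so counts were rounded. Columns were matched to samples by the numbers in the sample descriptions. Reads shared by near-identical transcripts are split by estimation, which can move counts between a member and its copies.

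MN1pQdel was compared with MN1 over 14808 genes that passed filterByExpr, using edgeR 4.0.16 (R 4.3.3) with TMM scaling, quasi-likelihood F tests and Benjamini-Hochberg adjustment, and no block. The p-values of leave-one-out fits come from the same model. Standard errors are the log2 fold change over the square root of the F statistic. CPM used TMM over all 7 libraries. The table also served DESeq2 1.42.0, other scalings, no filter and the replicate block. Same-numbered libraries had correlated deviations from their group means (0.368, 0.259 and 0.321, against -0.282 to -0.0603 for different numbers). Deviations from a group mean sum to 0 over its 3 libraries, so these correlations are not independent. They cannot settle whether the numbers pair the libraries, and the labels do not say so. The main fit and the permutation tests take no account of the numbers. Replicates differed by far more than sampling noise (chi-square per gene 43.4 to 355). Copies were found with BLAST 2.17.0 (word size 16). Log2 differences to noTD used a prior count of 2. Some of the edgeR fits were run on simulated counts, with changes far larger than the median of the members and no replicate effect. The pass mark for the largest changes was lowered after the first run. That simulation says nothing about a shift as shallow as that of the members.

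Members and gene lists were chosen with earlier results of these data known. Named are up to 8 passing members in each direction, the 5 of highest share, paralogs and members known for a role whatever their values, the 4 farthest from noTD each way among members with at least 100 counts in noTD or in every library of the group, up to 3 passing genes of each related list or the most abundant where none passes, and Mn1. Summing copies, leaving out marker rows and leaving out both libraries numbered 2 were chosen after seeing the data. Of the 6 related lists, 1 enters the summed counts but is not reported on its own here.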

Additional observations from a re-analysis of the deposited data

How the results depend on the processing

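The member share of counts is taken over library totals, so the scaling, the filter and the model cannot change it. As its groups did not overlap, leaving out 1 library cannot reverse it either. It was also lower in MN1pQdel with copies summed and with marker rows left out of the totals. The count of members that fell (1) was 2 with DESeq2 size factors, 39 with library totals, 11 with DESeq2, 14 with the replicate block, 0 to 16 with 1 library left out, 0 with copies summed, 7 without both libraries numbered 2 and 0 when scaled by the sum of the members (1 at an unadjusted p under 0.05). The fit without MN1pQdel library 2 gave the 16, where 20.6% of all genes were called lower; 13 of the 16 were among the 14 of the block, and the other 5 fits gave 0 (4 to 18 at an unadjusted p under 0.05). The count that rose (1) was 0 without the paralogs and Rps4l, which that setting also leaves out, and 0 to 1 with 1 library left out. Library totals in place of TMM shifted the median of all genes by -0.20 and that of the members to -0.40, and higher calls made up 38.2% of all calls, against 64.6%. Against noTD, MN1 members at least 1.5-fold higher (5) numbered 23 with library totals, 0 at 2-fold, 2 with copies summed and 1 to 5 with 1 library left out; those lower (3) numbered 1 at 2-fold, and MN1pQdel members lower (0) numbered 0 to 1 with 1 library left out. The related genes that fell (9) numbered 42 with library totals, 52 with the block, 0 to 57 with 1 library left out and 45 without both libraries numbered 2; those that rose (0) numbered 0 to 1 with 1 library left out and 1 without both numbered 2. The cause of these differences was not tested. Relative to the sum of the members, more named members lay above 0 than in the main fit, such as Rplp1 (0.13) and Rps19 (0.12). Others stayed below 0, such as Rpl12 (-0.38). That scaling is left out of the values that follow. Under the other settings some named members changed sign, from -0.13 for Rps12 and -0.11 for Rpl22l1 and from values nearer to 0 for Rpl10, Rpl37a and Rpl41. Fits that each dropped 1 library put Rpl10 between -0.0561 and 0.0102 (log2 fold change), with ranges of -0.226 to 0.0016 for Rpl22l1, -0.238 to 0.0258 for Rps12, -0.0298 to 0.0627 for Rpl37a and -0.0719 to 0.0587 for Rpl41. Rpl37a was -0.178 with library totals and -0.00040 without both libraries numbered 2. Rpl41 was -0.00779 with DESeq2 size factors, -0.00742 without the filter, -0.00778 with DESeq2, -0.202 with library totals and -5.2e-05 with the block. Of 420 values of the 30 tested named members, without those of the scaling by the member sum, 366 kept their direction and side of the threshold.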
